A study of Drosophila melanogaster with 8 samples.

Results

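RNA of fluorescence-sorted somatic cyst cells was compared with RNA of unsorted testis cell suspensions, pooling both strains of the study. All 8 of its 8 libraries entered the comparison, 4 sorted against 4 unsorted, with strain as a covariate. The study made poly(A)+ libraries from fly testes in which a GAL4 driver switches on green fluorescent protein (GFP) in cyst cells. The tj-GAL4 flies carried tj-GAL4 (Kyoto stock 104055) and UAS-GFP (Bloomington stock 9431), and the eya-GAL4 flies carried an eya-GAL4 line published in 2008 with the same UAS-GFP. The stated aim was to isolate early and mature cyst cells, for which tj and eya are common markers. Sorted and unsorted cells of a strain share its genotype, no treatment is named, and the sources used here give neither age nor the number of animals per library. A sorted library holds whichever dissociated cells carried enough GFP, and the driver's activity sets which cells those are. Libraries are named by strain, fraction and replicate number (tj-GAL4 sorted 1), and the eya-GAL4 unsorted libraries carry the table's numbers 3 and 4.

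Cyst cells are the somatic support cells of the fly testis. A pair of them encloses each germline cyst from its origin beside the hub, a cluster of signalling cells at the testis tip, until the sperm individualize. They receive JAK-STAT, Hedgehog, BMP and EGFR signals, they form septate junctions that seal the cyst, and they can engulf dying germ cells.

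Gene counts ran from 10771009 to 25344721 reads per library. Mitochondrially encoded genes took 4.68% to 31.7% of them. The first principal component held 63.1% of the variance, with all unsorted libraries between -100.9 and -28.1 and all sorted ones between 36.0 and 99.6. The second held 18.8% and set apart tj-GAL4 unsorted 2, which lay at -113.4 where the others lay between 5.32 and 39.1. That library also had the highest mitochondrial share, so counts are given with and without it. Both tj-GAL4 replicate 1 libraries have 6-base indexes and the other 6 libraries have 8-base indexes. The label of the sorted cells was checked on tj, eya and Six4.

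All 3 of these cyst cell genes rose. The transcription factor gene tj (2L:19464267-19467758, dm6) had 1.54 and 1.96 CPM (counts per gene scaled to a common library size) in tj-GAL4 unsorted and 2.57 and 1.65 in eya-GAL4 unsorted libraries. It had 45.3 and 28.9 CPM in tj-GAL4 sorted and 19.9 and 14.85 in eya-GAL4 sorted libraries. Every sorted library lay above every unsorted one, and the highest levels were in tj-GAL4 sorted cells. The log2 fold change was 3.72 ± 0.39 (SE, adjusted p = 0.000396).

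The coactivator and phosphatase gene eya (2L:6527447-6546976) had 16.7 to 46.5 CPM in unsorted and 145 to 211 CPM in sorted libraries, without overlap. The tj-GAL4 sorted libraries had 210.7 and 146.5 CPM of eya and the eya-GAL4 sorted ones 152.3 and 145. Levels of eya were therefore not higher in eya-GAL4 sorted cells. The log2 fold change of eya was 2.23 ± 0.34 (adjusted p = 0.00211), with 2.62 in tj-GAL4 and 1.85 in eya-GAL4 cells. Six4 (3L:20788886-20792777), which encodes a homeodomain partner of Eya, had 3.44 to 5.50 CPM in unsorted and 50.1 to 77.6 CPM in sorted libraries. It rose by 4.07 ± 0.28 (log2, adjusted p = 0.00014). Per length, the sorted cells held 22.9 RPKM of eya, 17.1 of Six4 and 3.69 of tj (reads scaled to gene length and library size). The calls of all 3 genes held without each library in turn.

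Of 12526 genes tested, 6126 (48.9%) were called at an adjusted p under 0.05, 3442 (27.5%) higher and 2684 (21.4%) lower in sorted cells. The median log2 fold change of all genes tested was -0.11. Rises were larger than falls. A total of 1233 genes rose and 264 fell by 4-fold or more, 483 rose and 33 fell by 8-fold or more, and 187 rose and 9 fell by 16-fold or more. The 4 sorted libraries lay above all 4 unsorted ones for 3295 genes (26.3%) and below them for 1715 (13.7%).

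Without tj-GAL4 unsorted 2, 4401 of 12436 genes (35.4%) were higher and 4246 (34.1%) lower. These included 3419 of the 3442 higher and 2606 of the 2684 lower calls. Without tj-GAL4 sorted 2, 3482 were higher and 3338 lower. Leaving out any 1 of the other 6 gave 2019 to 2707 higher and 707 to 1653 lower genes, the fewest higher without eya-GAL4 unsorted 3 and the fewest lower without eya-GAL4 sorted 1. A total of 1919 higher and 581 lower calls held without each library in turn. In bulk libraries, fewer cells of a type and less RNA per cell cannot be told apart, and p-values measure only the spread between these libraries, which the labels call biological replicates.

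**Figure D1:**
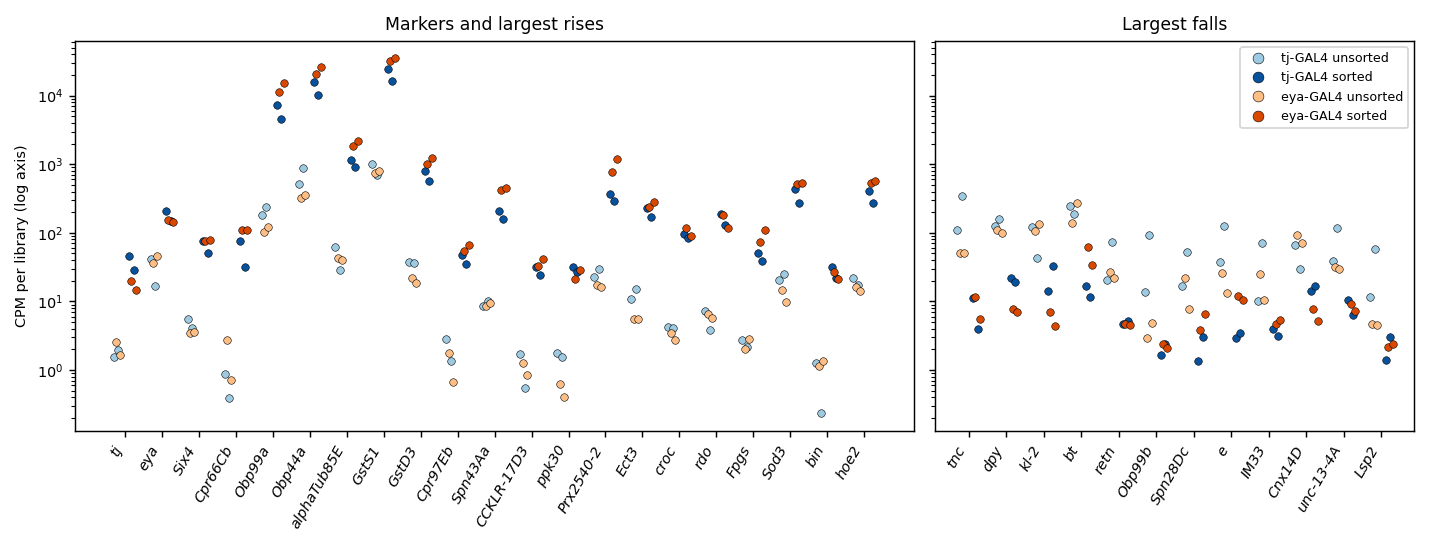
CPM of named genes in each of the 8 libraries on a log axis, 1 point per library, coloured by strain and fraction. The left panel shows tj, eya, Six4 and the 18 genes with the largest rises, and the right panel the 12 with the largest falls. These rises and falls were taken only from genes whose sorted and unsorted libraries do not overlap. The libraries do not overlap for tj, eya and Six4 either. GstS1, at 16436 to 34865 CPM in sorted libraries, is the highest gene shown.

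Obp44a and Obp99a encode odorant-binding proteins, a family of small secreted carriers. The levels of Obp99a were 182, 235, 103 and 123 CPM in unsorted and 7376, 4617, 11179 and 15193 CPM in sorted libraries, tj-GAL4 before eya-GAL4 in each fraction. They were lowest in the eya-GAL4 unsorted and highest in the eya-GAL4 sorted libraries. Obp99a rose by 5.85 ± 0.58 (log2, adjusted p = 0.000328), and Obp44a rose by 5.17 ± 0.57. Per length and as means over the sorted libraries, Obp44a and Obp99a were the most abundant nuclear transcripts at 7624 and 7060 RPKM.

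GstS1, a sigma class glutathione S-transferase, followed at a mean of 6833 RPKM. In tj-GAL4 sorted 1 and 2, however, GstS1 stood above Obp99a, at 5322 and 6811 against 4633 and 5533 RPKM. Its unsorted levels were 1015, 693, 753 and 786 CPM. Its sorted levels were 24501, 16436, 31663 and 34865 CPM, so that even the lowest sorted library stood far above all unsorted ones. The rise was 5.01 ± 0.43 (log2, adjusted p = 0.000193). Other redox and detoxification genes rose with it. GstD3, another glutathione S-transferase gene, rose from 18.5 to 37.5 CPM in unsorted to 564 to 1243 CPM in sorted libraries, the peroxiredoxin gene Prx2540-2 by 4.77 ± 0.54 and the extracellular superoxide dismutase gene Sod3 by 4.67 ± 0.41. GstD3 and Prx2540-2 have close copies beside them, and how reads with several matches were counted is not given, so their own levels are uncertain.

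The largest rise by the naming rule was that of Cpr66Cb, which encodes a protein of the cuticular chitin-binding family. It had 0.393 to 2.75 CPM in unsorted and 31.5 to 110 CPM in sorted libraries and rose by 6.17 ± 0.55. Cpr97Eb of the same family rose by 4.94 ± 0.48. The alpha-tubulin gene alphaTub85E had 28.8 to 62.2 CPM in unsorted and 901 to 2169 CPM in sorted libraries, a rise of 5.05 ± 0.42. Among regulators, the forkhead genes croc and bin rose by 4.75 ± 0.27 and 4.66 ± 0.47. The sulfakinin receptor gene CCKLR-17D3 rose by 4.84 ± 0.40, the sodium channel family gene ppk30 by 4.80 ± 0.39 and the serpin gene Spn43Aa by 4.93 ± 0.35. Ect3, a beta-galactosidase gene, rose by 4.75 ± 0.40, Fpgs, for folylpolyglutamate synthase, by 4.72 ± 0.35, and hoe2 by 4.65 ± 0.34. All 18 of the named rises kept their call whichever library was left out. They had been picked from these same libraries for large folds without overlap, so this is not independent support.

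The largest falls included genes of the extracellular matrix, muscle and sperm tail. For tnc, which encodes the matrix protein Tenectin, the levels were 109 and 345 CPM in tj-GAL4 unsorted and 50.6 and 50.7 in eya-GAL4 unsorted libraries. They were 11.2 and 3.94 CPM in tj-GAL4 sorted and 11.7 and 5.49 in eya-GAL4 sorted libraries. The fall was -3.75 ± 0.69 (log2, adjusted p = 0.00474), and tj-GAL4 unsorted 2 held the highest level. The giant matrix protein gene dpy fell from 100.6 to 158.6 CPM in unsorted to 7.003 to 22.3 CPM in sorted libraries, by -3.30 ± 0.28. Of the rest, bt, which encodes the titin-like muscle protein projectin, changed by -3.03 ± 0.48 and the Y-linked dynein heavy chain gene kl-2 by -3.09 ± 0.67. The ARID domain gene retn, the calnexin gene Cnx14D and the Munc13 family gene unc-13-4A changed by -2.81 ± 0.42, -2.62 ± 0.49 and -2.56 ± 0.44. These 7 calls held without each library.

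The calls of the other 5 of the 12 largest falls were each lost without at least 1 library. Without tj-GAL4 unsorted 2, where each was highest, all 5 calls held, at -1.71 for Obp99b, -2.005 for e, -1.62 for Lsp2, -2.12 for Spn28Dc and -1.77 for IM33. Obp99b had 13.8 and 92.5 CPM in tj-GAL4 unsorted and 2.94 and 4.78 in eya-GAL4 unsorted libraries, against 1.64 to 2.37 CPM in sorted ones. Its change was -2.81 ± 1.002 (adjusted p = 0.0455). The call was lost without each of 6 libraries, all except tj-GAL4 unsorted 2 and eya-GAL4 unsorted 3, at adjusted p of 0.0516 to 0.16. That of ebony (e), for a beta-alanyl amine synthase, at -2.71 ± 0.90, was lost without each of 6 libraries, all except tj-GAL4 unsorted 2 and eya-GAL4 unsorted 4, at 0.0526 to 0.13. The larval serum protein gene Lsp2, at -2.499 ± 0.78, lost its call without either tj-GAL4 sorted library or eya-GAL4 sorted 1, at up to 0.096. Spn28Dc, a serpin gene, at -2.71 ± 0.70, lost it without tj-GAL4 sorted 1 or eya-GAL4 unsorted 3, at adjusted p of 0.0541 to 0.0542, and IM33, an immune-induced gene, at -2.69 ± 0.66, without tj-GAL4 sorted 1, at 0.0538.

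The enrichment was measured in 2 pairs of groups that share no library. Fitted apart, 10490 of the 12526 genes (83.75%) had the same sign in both strains. A total of 2018 genes were higher in both strains by 2-fold or more and 976 were lower in both by as much. Only 14 were 2-fold higher in tj-GAL4 and 2-fold lower in eya-GAL4 cells, and 164 the other way round. Among genes called higher, the median log2 fold change was 1.19 in tj-GAL4 and 2.06 in eya-GAL4 cells, and among those called lower it was -0.86 and -1.48. Of the 3442 genes called higher, 2938 had the larger fold in eya-GAL4 cells.

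The difference between the strains' enrichments passed the test for no gene (0% of 12526, edgeR interaction term), with 1838 genes (14.7%) at an unadjusted p under 0.05. DESeq2 called 314. The count rose to 62 without tj-GAL4 unsorted 2 and to 4182 without tj-GAL4 unsorted 1, whose removal leaves that group with 1 library assumed to vary like the others. Of the unsorted libraries, tj-GAL4 unsorted 2 stood apart on the spermatocyte list, with 0.224% of counts against 0.732% in tj-GAL4 unsorted 1 and 0.707% and 0.758% in eya-GAL4 unsorted 3 and 4. The part of that library in the strain difference was not tested.

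**Figure D2:**
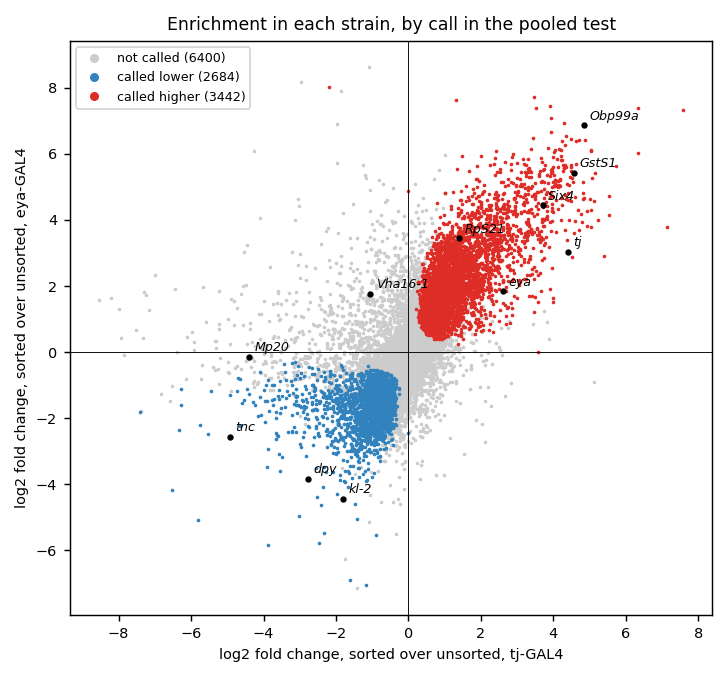
Log2 fold change of sorted over unsorted cells in tj-GAL4 (x axis) and eya-GAL4 libraries (y axis) for 12526 genes, 1 point per gene. Of the genes called higher in the pooled test (red, 3442) 3439 were up in both strains, and of those called lower (blue, 2684) 2683 were down in both. The pooled calls use the same libraries as the strain folds, so this agreement in sign is largely set by the selection. Mp20, a muscle gene, and Vha16-1, a proton pump subunit, are among the uncalled genes (grey, 6400) far from the diagonal.

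Gene lists were read against the share of all genes called, 27.5% higher and 21.4% lower. The lists and their members were chosen with earlier results of these data known, so an excess over these shares is not independent support. Some genes, such as dome and arm, are in more than 1 list. Calls over all genes also shift when a library is left out, to 2019 to 4401 higher and 707 to 4246 lower. List counts without a library are to be read beside these. Of 11 early cyst markers, 7 rose and none fell, and their median log2 fold change was 2.20. The rising genes were tj, dome, Stat92E, piwi, fs(1)Yb, stg and ImpL2. The cytokine receptor gene dome had 65.9 to 77.0 CPM in unsorted and 250 to 404 CPM in sorted libraries, and rose by 2.20 ± 0.22 (adjusted p = 0.000338). Its signal transducer Stat92E had 45.3 to 110 CPM in unsorted and 192 to 345 CPM in sorted libraries and rose by 2.10 ± 0.31. Neither overlapped.

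The transcription factor genes zfh1 and chinmo, both active in cyst stem cells, did not pass. For zfh1 the log2 fold change was -0.12 ± 0.39 (adjusted p = 0.80), with 0.62 in tj-GAL4 and -0.88 in eya-GAL4 cells. For chinmo it was -0.97 ± 0.49 (adjusted p = 0.12), with -0.03 in tj-GAL4 and -1.91 in eya-GAL4 cells. Without tj-GAL4 unsorted 2, chinmo was called lower (-1.46, adjusted p = 0.00127).

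Of 7 mature cyst markers, 6 rose, namely eya, Six4, rdo, so, Nrt and CG6084, with a list median of 2.23. The homeobox gene so had 11.1 to 18.4 CPM in unsorted and 51.5 to 60.9 CPM in sorted libraries, and rose by 2.15 ± 0.24. The leucine-rich repeat gene rdo rose by 4.72 ± 0.33. The seventh, the Hox gene Abd-B, fell, with 8.81 to 34.0 CPM in unsorted and 3.26 to 4.53 CPM in sorted libraries (-2.15 ± 0.43, adjusted p = 0.00642). Of 7 hub markers, 1 rose and 1 fell, both of them genes of secreted ligands. The hedgehog gene hh had 3.82 to 10.3 CPM in unsorted and 35.0 to 59.35 CPM in sorted libraries and rose by 3.05 ± 0.38. The cytokine gene upd1 changed by -1.08 ± 0.28 (adjusted p = 0.017), a call lost without eya-GAL4 unsorted 4 or either eya-GAL4 sorted library, at up to 0.0651.

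Of 22 spermatocyte genes 19 fell and none rose (median -1.48), and of 28 spermatid and sperm genes 21 fell and none rose (median -0.997). The meiotic arrest gene can had 36.75 to 75.3 CPM in unsorted and 8.39 to 29.5 CPM in sorted libraries and changed by -1.81 ± 0.37. The late transcribed gene w-cup had 1162 to 1831 CPM in unsorted and 261 to 641 CPM in sorted libraries and changed by -1.69 ± 0.30. The abundant protamine-like gene Mst77F did not pass, at -0.66 ± 0.53 (adjusted p = 0.31), with 6225 CPM in tj-GAL4 unsorted 2 and 1156 to 1646 CPM in the other 7 libraries. Germline RNA stayed measurable in sorted cells, where the spermatid list took 0.556% to 1.01% of counts against 1.28% to 1.66% in unsorted cells. The share differed by -0.752 percentage points (exact permutation test, two-sided p = 0.0286, the smallest that 4 against 4 allow).

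These counts depended on single libraries, as did those over all genes. Lower calls over all genes went from 2684 to between 707 and 1653 without tj-GAL4 unsorted 1, tj-GAL4 sorted 1 or any eya-GAL4 library. They went to 4246 without tj-GAL4 unsorted 2. Spermatocyte calls were 9 to 12 without tj-GAL4 unsorted 1, tj-GAL4 sorted 1 or any eya-GAL4 library, and 22 without tj-GAL4 unsorted 2. Spermatid calls were 9 to 13 without tj-GAL4 sorted 1 or any eya-GAL4 library. Of 19 early germline genes 2 rose and 3 fell, with a median of -0.14, 0.32 in tj-GAL4 and -0.62 in eya-GAL4 cells, and -0.59 with the authors' library totals. Without tj-GAL4 unsorted 2, 3 were higher and 7 lower (median -0.46), and none was lower without tj-GAL4 unsorted 1, tj-GAL4 sorted 1 or any 1 eya-GAL4 library. The Tudor domain gene tud had 154 to 265.5 CPM in unsorted and 480 to 909 CPM in sorted libraries and rose by 1.81 ± 0.31, and the RNA-binding protein gene pum rose by 1.09 ± 0.22. For vas, nos and bam, which define germ cells, log2 fold changes were -0.24 ± 0.43, 0.10 ± 0.39 and -0.19 ± 0.37, and none passed. Levels of vas were 4.16 to 12.3 CPM in unsorted and 4.53 to 12.3 CPM in sorted libraries. The falls of bgcn (-1.57 ± 0.46), AGO3 (-1.36 ± 0.40) and krimp (-0.96 ± 0.33) were each lost without any 1 of 6 libraries, all except tj-GAL4 unsorted 2 and tj-GAL4 sorted 2, at adjusted p up to 0.134.

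The muscle list had 11 of 19 tested members lower and none higher, with a median of -1.87, but -3.36 in tj-GAL4 and -0.60 in eya-GAL4 cells. Its share of counts was 0.176% to 0.282% in unsorted and 0.0765% to 0.099% in sorted libraries (exact permutation p = 0.0286). The lower calls dropped to 5 without tj-GAL4 sorted 1, and 2 members were higher and 14 lower without tj-GAL4 unsorted 2. The myosin heavy chain gene Mhc had 134 to 270 CPM in unsorted, 15.9 and 27.8 CPM in tj-GAL4 sorted and 68.4 and 85.5 CPM in eya-GAL4 sorted libraries, and changed by -2.38 ± 0.49. Of 19 accessory gland genes, 16 fell and none rose (median -1.52), with 8 lower calls without either eya-GAL4 sorted library. Acp62F had 122 to 271 CPM in unsorted and 43.5 to 61.6 CPM in sorted libraries and changed by -2.02 ± 0.30.

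Of 10 hemocyte genes, 6 fell and 2 rose. The rising genes were the GATA factor gene srp (1.27 ± 0.21) and the scavenger receptor gene crq (2.19 ± 0.38). The defining hemocyte gene Hml, at -2.41 ± 0.77, had 4.95 CPM in tj-GAL4 unsorted 2 and 38.5 to 117 CPM in the other unsorted libraries, against 8.13 to 15.2 CPM in sorted ones. Hemocyte lower calls were 0, 1 or 3 without 6 of the 8 libraries, and 6 without tj-GAL4 unsorted 2 or eya-GAL4 unsorted 4. Of 5 tested genes of pigment cells and the terminal epithelium, st (1.42 ± 0.32) and ry (2.96 ± 0.36) rose and none fell. The list median was 1.42, with -0.43 in tj-GAL4 and 2.09 in eya-GAL4 cells. The tj-GAL4 median is the fold of w, a common transgene marker, and the eya-GAL4 median that of Sox100B. For w, eya-GAL4 unsorted libraries had 15.3 and 21.3 CPM and the others 137 to 393 CPM. Levels of st were low, at 1.10 to 1.88 CPM in unsorted and 2.31 to 6.80 CPM in sorted libraries. In the fat body list 4 of 12 genes fell and 2 rose, with 1 or 2 falls without either tj-GAL4 sorted library or eya-GAL4 sorted 1. The fat body list took a larger share of counts in every sorted library, 0.0817% to 0.201%, than in any unsorted one, 0.0179% to 0.0533%. Yet the list's median log2 fold change was -2.04, with -3.02 in tj-GAL4 and 0.25 in eya-GAL4 cells. Summed counts weigh abundant members such as Tsf1 most. The transferrin gene Tsf1 rose by 4.43 ± 0.70, from 31.65 to 159 CPM in unsorted to 688 to 2344 CPM in sorted libraries, while apolpp, for the lipid carrier apolipophorin, changed by -1.78 ± 0.33. Of the neuron list only nSyb, for the vesicle protein synaptobrevin, was called, with a rise of 4.33 ± 0.38, and the neuronal gene elav did not pass at 0.77 ± 0.43. It was called higher without tj-GAL4 unsorted 2 (1.30, adjusted p = 0.00324), where 3 of the 5 neuron genes were higher and 1 lower. The part of other cell types in the called genes was not tested.

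**Figure D3:**
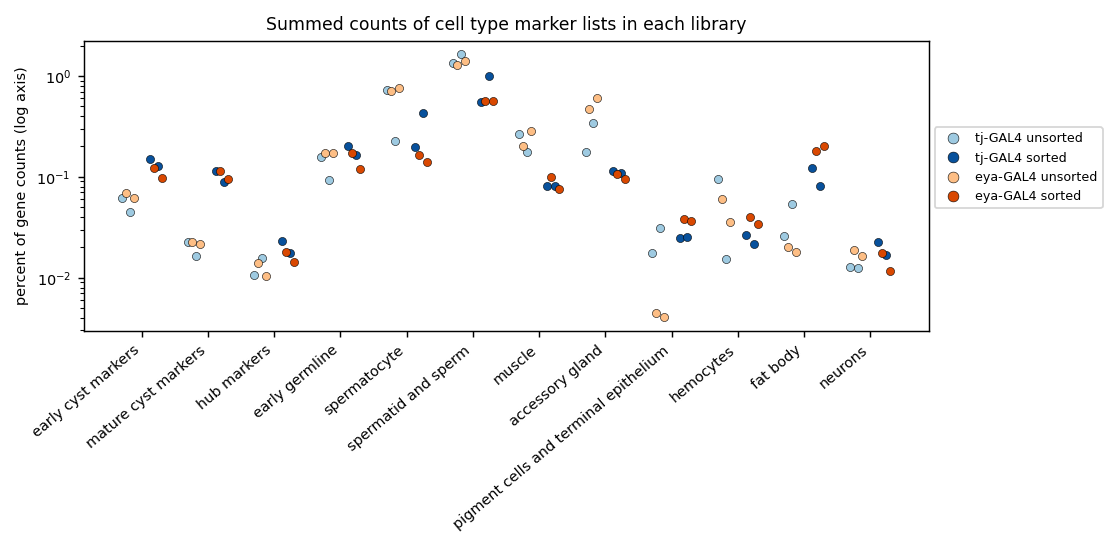
Percent of gene counts taken by each cell type marker list (x axis) in each library, on a log axis, 1 point per library, coloured by strain and fraction. Sorted libraries lie above unsorted ones for both cyst lists and the fat body list, and below them for the muscle, accessory gland and spermatid lists. Summed shares weigh abundant members most, and the median log2 fold change of the fat body list was -2.04. For spermatocytes tj-GAL4 unsorted 2, at 0.224%, lies among the sorted libraries.

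EGFR signalling relays a germline ligand through Ras to a kinase cascade and ETS factors in cyst cells. Of 21 tested members 17 rose and none fell (median 1.35). The rising genes included the ligand genes vn (2.26 ± 0.28), Krn (2.23 ± 0.42), spi and grk, the receptor gene Egfr (1.91 ± 0.38) and the cascade genes Ras85D (2.10 ± 0.37), Raf (1.41 ± 0.22), Dsor1 (2.44 ± 0.40) and rl. Inhibitors that the pathway is known to induce rose too, with aos at 2.70 ± 0.24, sty at 1.52 ± 0.30 and kek1 at 1.69 ± 0.32. Levels of aos were 1.72 to 2.75 CPM in unsorted and 11.9 to 15.9 CPM in sorted libraries, without overlap. Sos, S, rho and ksr did not pass, with log2 fold changes of -0.45 to 0.25. The calls of spi (0.64 ± 0.20), pnt (0.94 ± 0.30) and rl (1.06 ± 0.36) were lost without any 1 of 6 libraries, all except tj-GAL4 unsorted 2 and tj-GAL4 sorted 2, at adjusted p up to 0.116. The call of grk (1.35 ± 0.34) was lost without either eya-GAL4 unsorted library, at up to 0.0549. Calls over the list were 9 to 11 without eya-GAL4 unsorted 3, eya-GAL4 unsorted 4 or eya-GAL4 sorted 1.

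Hedgehog signalling had 10 of 14 members higher and none lower (median 1.27), with 9 or 10 without each library. The genes that rose comprised the ligand gene hh, rasp and disp, which modify and release it, the glypican genes dlp (2.04 ± 0.24) and dally, the co-receptor gene ihog, the signal transducer gene smo (1.34 ± 0.28), the kinase gene fu, Su(fu) and the transcription factor gene ci (1.72 ± 0.32). The rise of dally (1.76 ± 0.51) was lost without tj-GAL4 sorted 1 or any 1 eya-GAL4 library, at up to 0.08. The receptor gene ptc, itself a target, did not pass at 0.68 ± 0.37, with 1.504 in tj-GAL4 and -0.15 in eya-GAL4 cells.

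BMP signalling had 11 of 16 tested members higher and none lower (median 1.75), with 8 to 12 higher calls without each library. The ligand gene dpp had 7.15 to 11.8 CPM in unsorted and 89.4 to 138 CPM in sorted libraries, a rise of 3.54 ± 0.25 (adjusted p = 0.000141). The secreted modulator genes cv-2, magu and sog rose by 3.25 ± 0.29, 2.87 ± 0.28 and 2.18 ± 0.28. Receptor genes wit and put rose, put by 1.73 ± 0.28 and wit from 7.33 to 13.9 CPM in unsorted to 52.0 to 68.0 CPM in sorted libraries, and the inhibitor and target gene Dad by 2.53 ± 0.37. The second ligand gene, gbb, had 53.6 CPM in tj-GAL4 unsorted 2 and 8.68 to 10.8 CPM in the other unsorted libraries, against 53.5 to 136 CPM in sorted ones. Its rise of 2.24 ± 0.71 was lost without any 1 of 6 libraries, all except tj-GAL4 unsorted 2 and tj-GAL4 sorted 2, at up to 0.107.

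In Notch signalling, the receptor gene N rose by 1.04 ± 0.24 and the ligand gene Dl changed by -1.11 ± 0.25, with 9.19 to 13.01 CPM in unsorted and 4.35 to 6.41 CPM in sorted libraries. The target genes E(spl)m3-HLH and E(spl)mbeta-HLH rose by 3.67 ± 0.29 and 3.40 ± 0.37, the former from 1.65 to 4.48 CPM in unsorted to 30.4 to 49.1 CPM in sorted libraries. In all, 10 of 17 members rose, among them the glycosyltransferase gene fng (2.65 ± 0.56), the coactivator gene mam (2.10 ± 0.31) and mib1 (1.80 ± 0.20), for a ubiquitin ligase that acts on the ligands in sending cells, and 1 fell. Lower calls were 3 without tj-GAL4 unsorted 2. The ligand gene Ser did not pass at -1.09 ± 0.51.

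Of 20 tested Wnt genes 8 rose and none fell (median 0.52, and 0.099 with the authors' library totals). Without each library in turn 6 to 10 rose, with 6 without tj-GAL4 sorted 1, either eya-GAL4 unsorted library or eya-GAL4 sorted 1. A single member was lower without tj-GAL4 unsorted 2 or tj-GAL4 sorted 2. The ligand genes Wnt2 and Wnt4 rose by 3.87 ± 0.52 and 2.36 ± 0.33, and the receptor genes fz2 and fz3 by 1.73 ± 0.30 and 1.80 ± 0.24. Of 21 tested ecdysone genes 12 rose and none fell (median 1.26), with 9 to 13 rises without each library and 1 fall without tj-GAL4 sorted 1. Cyp18a1, whose enzyme inactivates ecdysteroids, had 0.179 to 0.524 CPM in unsorted and 8.14 to 13.4 CPM in sorted libraries, and rose by 4.75 ± 0.38. The ecdysone-inducible genes E23 and Eip71CD rose by 1.95 ± 0.26 and 2.56 ± 0.38, while the receptor gene EcR did not pass at 1.04 ± 0.40 (adjusted p = 0.0571). JAK-STAT signalling had 4 of 15 members higher and 1 lower (median 0.07, and -0.26 with the authors' library totals), and 5 higher and 3 lower without tj-GAL4 unsorted 2. There dome, Stat92E and apt (1.09 ± 0.21) rose, and the kinase gene hop did not pass at 0.07 ± 0.27.

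**Figure D4:**
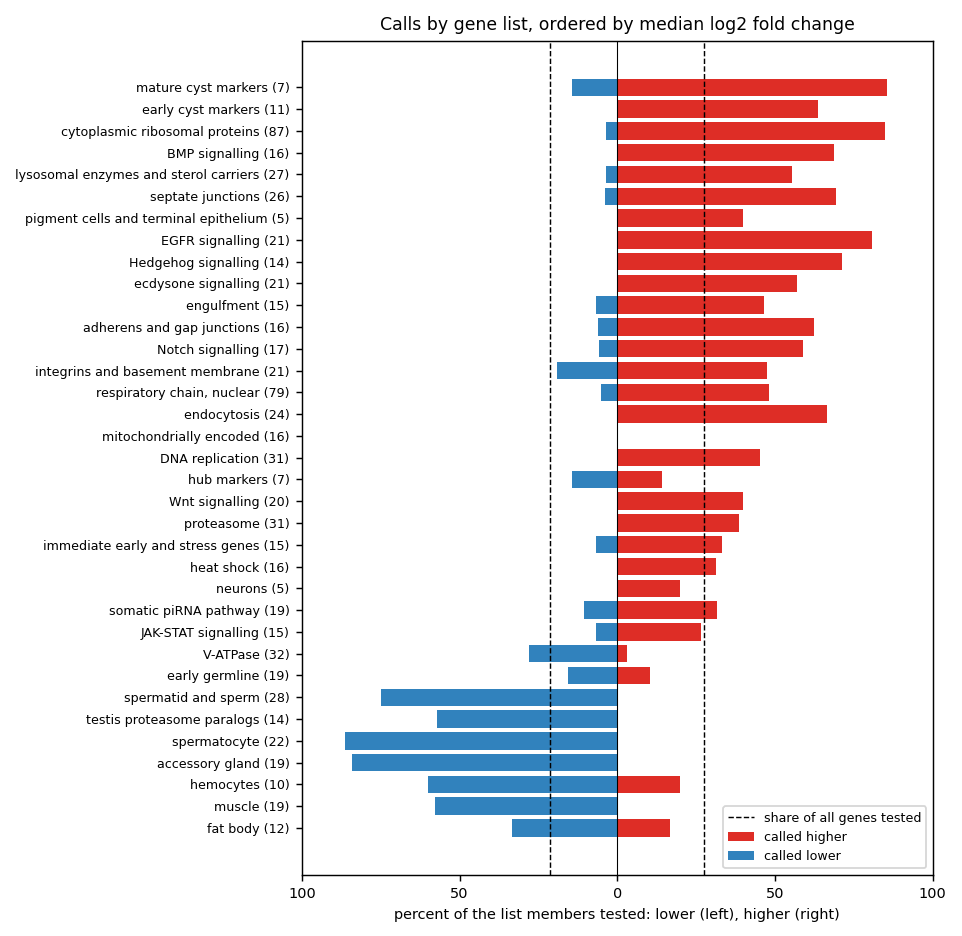
Percent of the tested members of each of 35 gene lists called higher (red, to the right) and lower (blue, to the left), ordered by median log2 fold change, with the number tested in brackets. Dashed lines mark the shares of all genes tested, 27.5% and 21.4%. EGFR signalling (17 of 21 higher) and spermatocyte genes (19 of 22 lower) lie far past them, and JAK-STAT signalling (4 of 15 higher) lies beside them. The lists were chosen with earlier results of these data known.

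Of 26 septate junction genes 18 rose and 1 fell (median 1.52), with 13 to 23 higher calls without each library. The claudin family genes sinu, kune and pck rose by 2.92 ± 0.50, 2.69 ± 0.53 and 2.53 ± 0.53, and the core components Nrx-IV, Cont and Atpalpha by 2.11 ± 0.28, 1.92 ± 0.32 and 2.44 ± 0.43. Nrx-IV had 85.6 to 112.5 CPM in unsorted and 301.5 to 522 CPM in sorted libraries. The Ly6 family genes cold, crim and crok rose by 2.90 ± 0.52, 2.46 ± 0.40 and 1.93 ± 0.41, whereas atilla of the same family fell (-1.94 ± 0.56), a call lost without 3 libraries.

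In adherens and gap junctions 10 of 16 genes rose and 1 fell (median 1.18). E-cadherin (shg) had 52.5 to 61.2 CPM in unsorted and 149 to 325 CPM in sorted libraries, beta-catenin (arm) rose by 1.76 ± 0.25, and the polarity gene baz by 2.77 ± 0.36. The innexin gene Inx2 had 98.9 CPM in tj-GAL4 unsorted 2 and 12.7 to 17.96 CPM in the other unsorted libraries, and its rise of 1.92 ± 0.67 was lost without any 1 of 6 libraries, all except tj-GAL4 unsorted 2 and tj-GAL4 sorted 2, at up to 0.131. List calls were 6 without eya-GAL4 unsorted 3 or eya-GAL4 sorted 1. Among basement membrane genes, perlecan (trol), LanA and LanB1 rose by 2.01 ± 0.27, 1.92 ± 0.34 and 1.62 ± 0.28. Both collagen IV genes were lower, with Col4a1 and vkg at -1.88 ± 0.64 each, which was lost without either tj-GAL4 sorted or either eya-GAL4 sorted library or eya-GAL4 unsorted 3, at up to 0.143. Of the 21 integrin and basement membrane genes 10 rose and 4 fell (median 0.99), with 5 or 6 rises without either eya-GAL4 unsorted library or eya-GAL4 sorted 1.

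Of 15 engulfment genes 7 rose and 1 fell, with 5 to 10 rises without each library. The receptor gene drpr had 43.45 to 73.4 CPM in unsorted and 331.5 to 567 CPM in sorted libraries, and rose by 2.93 ± 0.30 (adjusted p = 0.000357). The scavenger receptor genes emp and crq rose by 1.86 ± 0.29 and 2.19 ± 0.38, and Rac1 and Ced-12, which drive the engulfing membrane, by 1.97 ± 0.30 and 1.29 ± 0.27. Of 24 endocytosis genes 16 rose and none fell (median 0.85), led by the megalin gene mgl at 2.55 ± 0.35, but 6 to 10 did so without tj-GAL4 sorted 1 or any eya-GAL4 library, and 2 were lower without tj-GAL4 unsorted 2.

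Of 27 tested lysosomal and sterol carrier genes 15 rose and 1 fell (median 1.65), with 13 to 18 higher calls without each library and 4 lower without tj-GAL4 unsorted 2. Gba1b, a glucocerebrosidase gene, had 2.06 to 3.74 CPM in unsorted and 54.9 to 85.4 CPM in sorted libraries, a rise of 4.55 ± 0.30. The cholesterol transport genes Npc1a and Npc2a rose by 2.08 ± 0.31 and 3.58 ± 0.66, the thioesterase gene Ppt1 by 2.97 ± 0.29, and the mannosidase gene LManII by 3.10 ± 0.36. The cathepsin genes cathD and CtsB1 rose by 2.89 ± 0.61 and 2.94 ± 0.64. Close relatives did not follow: Gba1a was at -1.16 ± 0.47 and LManIII at -1.83 ± 1.03, neither called.

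The V-ATPase is the proton pump that acidifies lysosomes. Of its 32 genes 1 rose, Vha100-1 (1.80 ± 0.41), and 9 fell, among them Vha16-3, Vha16-5, Vha14-2 and VhaAC39-2 (-1.62 ± 0.37 to -1.25 ± 0.25). The subunit gene Vha68-2 had 1122 CPM in tj-GAL4 unsorted 2 and 78.7 to 136 CPM in the other unsorted libraries, against 320 to 552 CPM in sorted ones. The list's median was 0.03, with -0.69 in tj-GAL4 and 0.98 in eya-GAL4 cells. Without tj-GAL4 unsorted 2, 16 members were higher and 12 lower, and the median was 0.76.

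Of 31 proteasome genes 12 rose and none fell (median 0.40, and 0.03 with the authors' library totals), 7 of them without either eya-GAL4 unsorted library, and of 14 testis proteasome paralogs 8 fell and none rose (median -1.05). The base subunit gene Rpt3 had 13.7 to 37.3 CPM in unsorted and 68.3 to 110 CPM in sorted libraries and rose by 2.19 ± 0.38. Its paralog Rpt3R had 69.3 to 119 CPM in unsorted and 34.65 to 69.6 CPM in sorted libraries and changed by -1.18 ± 0.30 (lost without either eya-GAL4 sorted library, at up to 0.0606). Prosalpha4 rose by 2.68 ± 0.35 and Prosalpha4T1 changed by -1.39 ± 0.35, a call lost without tj-GAL4 unsorted 1 or eya-GAL4 sorted 1 at up to 0.0568. Summed, the paralogs came to 36.75%, 26.8%, 33.5% and 32.5% of the counts of the general subunits in unsorted libraries. In sorted ones they came to 11.8%, 19.8%, 9.12% and 9.51%, below all unsorted values. The count of paralog falls was 0 to 5 without tj-GAL4 unsorted 1, tj-GAL4 sorted 1 or any eya-GAL4 library, and 14 without tj-GAL4 unsorted 2 or tj-GAL4 sorted 2.

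Of 87 cytoplasmic ribosomal protein genes 74 rose and 3 fell (median 1.88, with 0.94 in tj-GAL4 and 2.83 in eya-GAL4 cells). RpS13 had 187 to 506 CPM in unsorted and 727 to 1396 CPM in sorted libraries and rose by 1.99 ± 0.44. The 3 that fell were RpL10Aa, RpS28a and RpS19b (-0.89 ± 0.23, -0.91 ± 0.26 and -1.01 ± 0.29), each with a paralog, RpL10Ab, RpS28b and RpS19a, that rose by 1.81, 1.77 and 2.08. Each of these 6 calls was lost without 3 to 6 of the libraries, at adjusted p up to 0.132. Of the rising calls, 4 were left without eya-GAL4 unsorted 3, 10 without eya-GAL4 unsorted 4, 30 and 39 without eya-GAL4 sorted 1 and 2, 46 without tj-GAL4 unsorted 1 and 53 without tj-GAL4 sorted 1, against 80 without tj-GAL4 unsorted 2 and 77 without tj-GAL4 sorted 2. The median ran from 1.59 to 2.47 over the same settings.

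In the nuclear respiratory chain list 38 of 79 genes rose and 4 fell. The 4 were ND-B14.5AL, COX7AL, ND-20L and ND-49L, each lost without 5 or 6 of the libraries at up to 0.152, and COX7A, the paralog of COX7AL, rose by 2.33 ± 0.53. Rises numbered 4 and 5 without eya-GAL4 unsorted 3 and 4, 14 to 23 without tj-GAL4 unsorted 1, tj-GAL4 sorted 1 or either eya-GAL4 sorted library, and 62 without tj-GAL4 unsorted 2. None of 16 mitochondrially encoded genes tested passed (medians of -0.46 in tj-GAL4 and 2.20 in eya-GAL4 cells), while 15 were called higher without tj-GAL4 unsorted 2. Of 31 DNA replication genes 14 rose and none fell (median 0.61), with 9 without any 1 eya-GAL4 library. Leaving out tj-GAL4 unsorted 2 gave 14 higher and 6 lower, with a median of 0.34. RnrS, for the small ribonucleotide reductase subunit, had 8.35 to 10.1 CPM in unsorted and 38.1 to 44.0 CPM in sorted libraries and rose by 2.14 ± 0.20.

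**Figure D5:**
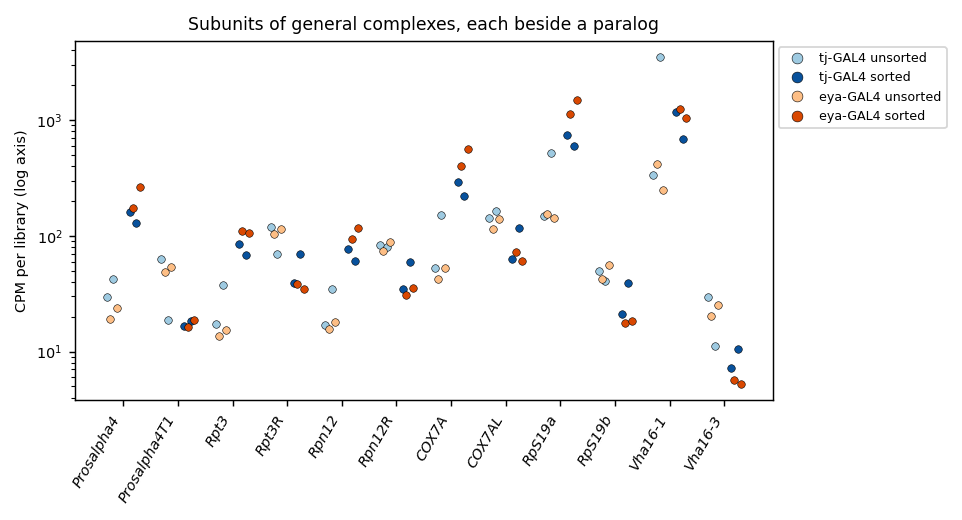
CPM in each library, on a log axis, of 6 subunit genes of general complexes, each followed by a paralog, 1 point per library, coloured by strain and fraction; these pairs were picked after their values were seen. Prosalpha4, Rpt3 and Rpn12 lie higher in every sorted than in every unsorted library, Prosalpha4T1 and Rpn12R lower, Rpt3R overlaps (69.3 CPM in tj-GAL4 unsorted 2, 69.6 in tj-GAL4 sorted 2), and Vha16-1 reaches 3509 CPM in tj-GAL4 unsorted 2.

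The somatic piRNA, heat shock and immediate early lists had shares of higher calls near the 27.5% of all genes tested. The somatic piRNA list had 6 of 19 genes higher and 2 lower (median 0.27, and -0.16 with the authors' library totals). Lower calls were 5 without tj-GAL4 unsorted 2, 3 without tj-GAL4 sorted 2, 0 without eya-GAL4 sorted 1 and 1 without any 1 of the other 5. The Argonaute gene piwi had 7.93 to 11.2 CPM in unsorted and 34.3 to 83.8 CPM in sorted libraries and rose by 2.62 ± 0.29, and fs(1)Yb rose by 2.33 ± 0.35. In the heat shock list 5 of 16 tested genes rose (3 without eya-GAL4 unsorted 3), led by the small chaperone genes Hsp67Ba (4.49 ± 0.37) and Hsp23 (3.11 ± 0.52). Hsp23 had 206.5 to 807 CPM in unsorted and 2213 to 4253 CPM in sorted libraries. Hsp83 and Hsp68 did not pass at 0.07 ± 0.26 and 0.03 ± 0.28. Of 15 immediate early and stress genes 5 rose and 1 fell, with 10 rises without tj-GAL4 unsorted 2 and 3 without tj-GAL4 sorted 1 or any 1 eya-GAL4 library. The cell death gene hid rose by 1.53 ± 0.20, and kay and Jra, whose products form the AP-1 factor, did not pass at 0.28 ± 0.46 and -0.26 ± 0.25.

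On the X chromosome 680 of 1925 genes tested (35.3%) rose, against 24.9% to 26.8% on the arms 2L, 2R, 3L and 3R. On the Y chromosome 10 of 13 fell and none rose. Of 11188 protein-coding genes 29.5% rose and 20.6% fell, and of 1202 non-coding RNA genes 9.90% rose and 29.7% fell. The median deposited length was 1945 nt for genes that rose, 1512 nt for those that fell and 1683 nt for the others. These shares are descriptions without a test. Nearest the threshold lay Upf1 (-1.15), CG12869 (-1.38) and lncRNA:CR43241 (1.60) on the called side, at adjusted p of 0.04992 to 0.04998. CG1146, CG9029 and Ibf2 (-0.61, -1.31 and -0.86) lay on the other, at 0.05002 to 0.05004.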

How the data were processed

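Poly(A)+ RNA of 4 sorted and 4 unsorted cell samples was analysed. FastQC, Bowtie 1.2.2, HTSeq, DESeq2 and the build dm6 are named in the submitters' processing notes, and the kit is a directional one per the labels. The sources used here do not give the strand setting, annotation or treatment of multiply matching reads, so reads of overlapping genes and close paralogs are uncertain. The deposited table holds raw counts per gene (HTSeq, per the file headers) for 16018 genes, RPM scaled by the authors to a library total whose content is not given, and gene lengths. Gene counts came to 27.97% (eya-GAL4 sorted 1) to 71.64% (tj-GAL4 sorted 2) of that total, which affects RPKM levels. A further 20 value columns (repeated counts, RPKM, means) were not used. A total of 15164 names matched a current symbol, 811 a synonym and 43 none, and positions come from the Ensembl annotation of the dm6 assembly.

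The 12526 genes that reached a CPM of 1 in 2 or more libraries entered edgeR 4.0.16 (TMM, quasi-likelihood, strain covariate, 5 residual degrees of freedom; 4 for the interaction). Calls are two-sided at a Benjamini-Hochberg adjusted p under 0.05. SE was taken as the size of the log2 fold change divided by the square root of the F statistic. CPM use TMM-scaled gene totals; RPKM were computed here from deposited RPM and length. Ranges are over the 4 libraries of a fraction. On simulated counts for 12526 genes, 73 of 100 genes changed 4-fold and all 100 changed 8-fold were called, with 10 false calls.

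The naming rule took tj, eya, Six4, the 18 largest rises and 12 largest falls (called, mean RPM of at least 5, no overlap, no CG or CR number), 4 members of each of 35 lists with the smallest p, 5 with the smallest interaction p and 3 on each side of the threshold; other list members were named for their role after their values were seen. Members and lists were chosen with earlier results of these data known. The 9 list names not found in the table were left out, and members under the CPM minimum were not tested. DESeq2 1.42.0, limma 3.58.1 on log2(RPM + 1) with a pseudocount of 1, other scalings and filters, a replicate block and leaving out each library were alternatives. R was 4.3.3.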

Additional observations from a re-analysis of the deposited data

Results flagged for a closer look

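In the second principal component, tj-GAL4 unsorted 2 lay at -113.4 among the 4 unsorted libraries, farther from the rest than a test for outlying values allows. Chance alone would give such a result in about 1 in 20 groups of independent values. The component was computed from these same libraries, so a single deviant library can set its direction, and that rate need not hold.

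For 4 flagged genes every sorted library moved one way in tj-GAL4 and the other way in eya-GAL4 cells. They are not a full count of such genes. Of all 12526 genes tested, 164 were 2-fold or more lower in tj-GAL4 and as much higher in eya-GAL4 cells, and 14 the reverse. The difference of the log2 enrichments, eya-GAL4 minus tj-GAL4, was 5.18 for CG15674, 4.70 for the antifungal peptide gene Drs, 3.62 for CG17032 and 4.87 for CG6409. None passed the interaction test after adjustment, with adjusted p of 0.12 for CG15674 and 0.19 for the other 3. Drs had 33.1 and 45.4 CPM in tj-GAL4 unsorted against 3.21 and 3.29 in tj-GAL4 sorted libraries, and 10.1 and 4.69 in eya-GAL4 unsorted against 14.2 and 17.75 in eya-GAL4 sorted ones.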

How the results depend on the processing

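None of the 174 genes taken by the naming rule reversed a call under the alternatives run, and 121 lost a call under at least 1. The 174 include genes without a call in the pooled fit, such as tup, upd3 and w, which had none to lose. Genes named outside the rule are not in these counts. The counts, 3442 higher and 2684 lower, moved by over 1.5 times with limma on log2(RPM + 1) (1471 and 1473), against a 2-fold threshold (1199 and 131), with only the 6 libraries of 8-base indexes (1661 and 574), in tj-GAL4 libraries alone (236 and 32), in eya-GAL4 alone for lower calls (4414), and with the authors' totals for higher calls (1572, against 1824 lower, so 46.3% of calls were higher in place of 56.2%). Those totals moved the median of all genes from -0.11 to -0.46. DESeq2 gave 3716 and 3970. Leaving out 1 library gave 2019 to 4401 higher, 707 to 4246 lower and 0 to 4182 interaction calls, and DESeq2 gave 314 of the latter. With 1 library left out, spermatid shares differed by -0.864 to -0.675 points (exact permutation p = 0.0571 without tj-GAL4 unsorted 1, tj-GAL4 unsorted 2 or eya-GAL4 unsorted 4, at -0.777, -0.675 and -0.757) and spermatocyte shares by -0.499 to -0.321 (p = 0.0571 over all libraries, 0.0286 without tj-GAL4 unsorted 2, at -0.499). The mitochondrial difference of 2.73 points (exact permutation p = 0.714) ran from -0.256 without eya-GAL4 unsorted 4 to 8.74 without tj-GAL4 unsorted 2; the cause was not tested.

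The replicate block for tj-GAL4 gave 3478 higher and 2514 lower calls. Same-numbered tj-GAL4 libraries deviated oppositely (r = -0.35 across genes), and the crossed pairing, added after seeing the data, gave 3769 and 3196. With 4 libraries a side, 73 of 100 simulated 4-fold changes were called. The simulation changed only 100 genes by 4-fold and 100 by 8-fold among 12526 and held no strain difference, whereas 6126 genes were called in the data. Its recovery is therefore not that of this comparison, in which changes of 4-fold or less may still be missed.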

Other observations

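Single libraries held extreme levels of some signalling and germline genes. The ligand genes Wnt6 and wg had 309 and 33.2 CPM in tj-GAL4 unsorted 2, and 7.02 to 30.5 and 0.358 to 5.07 CPM in the other 7 libraries. The germline piRNA gene rhi had 92.4 CPM in eya-GAL4 sorted 1 and 0.942 to 5.29 CPM in the other 7. The eye pigment transporter gene w, a common transgene marker, had 15.3 and 21.3 CPM in eya-GAL4 unsorted and 137 to 393 CPM in the other 6 libraries. None of these 4 genes was called in the pooled comparison. They were chosen after their values were seen.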
